A study of Mus musculus with 12 samples.

Results

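The 8 genes described here encode enzymes of cholesterol synthesis (Hmgcs1, Idi1, Fdps, Sqle, Lss and Cyp51) and regulators of that pathway (Insig1 and Srebf2). They were taken by name, with all probe sets annotated to one of them alone, which gave 16 of the 29467 probe sets in the deposited table and 8 of the 13710 genes with a single-gene probe set. The arrays measured total RNA of whole liver and lung from male FVB/N mice, started as weanlings on a Se-deficient torula yeast diet to which 0.1 ppm Se (0.1 Se) or 0 ppm Se (0 Se) had been added as sodium selenite, for 6 weeks. The 12 arrays formed the groups 0.1 Se liver, 0 Se liver, 0.1 Se lung and 0 Se lung, with 3 biological replicates each per the labels. All groups shared the strain, the sex and the basal diet, and differed in the added Se and the tissue. The labels do not tie a liver array to a lung array of the same mouse.

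Cholesterol is made from acetyl-CoA through mevalonate and isoprenoid intermediates to squalene, which is epoxidized, closed to lanosterol and trimmed to cholesterol. The transcription factor SREBP-2, encoded by Srebf2, drives the genes of this route when sterols in the endoplasmic reticulum are low, and INSIG proteins hold its escort SCAP in that membrane when sterols are plentiful. Liver is a main site of the synthesis and also turns cholesterol into bile acids, whereas lung needs sterols for membranes and surfactant. The 8 genes cover the synthesis and its control, and genes of sterol uptake and trafficking were followed as a separate list.

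Because several of these genes moved together from array to array, the sequences upstream of their start sites are shown for 3 of them. RefSeq promoter windows (build GRCm38.p6) were found for 6 of the 8 genes, while Sqle and Fdps had no entry. The 250 bases before the start were searched on both strands for the core of the sterol regulatory element (TCACNCCAC), the CCAAT box (CCAAT) and the GC box (GGGCGG), and the capitals below mark their matches.
Hmgcs1 (chr13:119690101-119690350, plus strand): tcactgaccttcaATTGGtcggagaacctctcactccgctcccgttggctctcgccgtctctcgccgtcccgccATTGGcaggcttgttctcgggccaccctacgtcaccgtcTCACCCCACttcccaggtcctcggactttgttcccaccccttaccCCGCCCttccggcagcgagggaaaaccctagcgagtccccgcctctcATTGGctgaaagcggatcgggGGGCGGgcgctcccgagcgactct
Idi1 (chr13:8885356-8885605, plus strand): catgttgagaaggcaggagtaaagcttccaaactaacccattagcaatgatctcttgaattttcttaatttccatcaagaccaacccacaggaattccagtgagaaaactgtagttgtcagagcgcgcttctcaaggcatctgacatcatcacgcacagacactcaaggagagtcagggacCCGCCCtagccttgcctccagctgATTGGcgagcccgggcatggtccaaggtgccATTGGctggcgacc
Insig1 (chr5:28071162-28071411, plus strand): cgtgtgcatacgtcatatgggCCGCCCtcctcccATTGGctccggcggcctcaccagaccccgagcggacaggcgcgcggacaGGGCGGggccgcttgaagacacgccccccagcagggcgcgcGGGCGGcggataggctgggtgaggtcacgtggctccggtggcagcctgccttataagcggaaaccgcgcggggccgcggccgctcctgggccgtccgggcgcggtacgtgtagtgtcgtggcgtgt
The sterol regulatory element core was found in 1 of the 6 windows, that of Hmgcs1, beginning 137 bases before the start, against 1.05% of 32851 windows of the same length over all genes. A CCAAT box stood in 6 of the 6 windows (33.8% of all windows) and a GC box likewise in 6 of the 6 (32.7% of all windows). Hmgcs1 held 3 CCAAT boxes and Idi1 held 2, each on the reverse strand, and no match overlapped another motif. The matches describe letters only, and a window without the core says nothing of binding elsewhere.

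The clearest difference in these genes lay between the tissues. In liver 7 of the 8 were higher than in lung and Srebf2 was lower, and the 8 passed limma's test across all probe sets (adjusted p under 0.05) over both diets and within each diet. Of all 15112 probe sets tested, 33.9% were called higher in liver and 47.7% lower, and the median difference over them was -0.18 on the log2 scale, against 2.12 over the 8 genes. The calls over all probe sets were 5122 higher and 7204 lower in liver, and 3957 higher and 8692 lower after quantile normalization. The values are log2 MAS5 signals, and each array had been scaled separately, so the differences are relative to that scaling. In whole tissue, a different share of cells of a type and a different amount of RNA per cell cannot be told apart.

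Hmgcs1 encodes the cytosolic HMG-CoA synthase that forms the precursor of mevalonate. Its log2 signal was 13.16, 14.31 and 14.06 in 0.1 Se liver and 14.03, 14.25 and 13.80 in 0 Se liver, against 12.37, 12.26 and 12.19 in 0.1 Se lung and 12.69, 12.39 and 12.11 in 0 Se lung. Every liver array lay above every lung array, by a mean of 1.60 ± 0.16 (SE), which is 3.03-fold (adjusted p = 1.58e-07). Its other 3 tested probe sets gave 1.60, 1.69 and 1.76.

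Idi1 encodes the isomerase that supplies dimethylallyl diphosphate. Its signal was 12.74, 13.16 and 13.08 in 0.1 Se liver and 13.34, 13.62 and 13.30 in 0 Se liver, against 11.12, 11.21 and 10.94 in 0.1 Se lung and 11.46, 11.24 and 10.99 in 0 Se lung. Liver exceeded lung by 2.05 ± 0.10, or 4.14-fold (adjusted p = 1.85e-11). Fdps encodes farnesyl diphosphate synthase, which makes the last isoprenoid before squalene. It had 12.30, 12.93 and 13.11 in 0.1 Se liver and 12.69, 12.69 and 12.48 in 0 Se liver, against 9.95, 9.30 and 9.43 in 0.1 Se lung and 9.85, 9.58 and 8.90 in 0 Se lung. Its tissue difference of 3.20 ± 0.17, or 9.20-fold, was the largest of the 8 (adjusted p = 5.82e-11).

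Sqle encodes squalene epoxidase, a rate-controlling step after squalene. Its signal was 10.00, 11.74 and 11.81 in 0.1 Se liver and 11.43, 11.59 and 10.91 in 0 Se liver, against 10.03, 9.89 and 9.65 in 0.1 Se lung and 10.18, 9.73 and 9.89 in 0 Se lung. Here the tissues overlapped on 1 array, because 0.1 Se liver replicate 1 fell among the lung values. The difference of 1.35 ± 0.25 (2.55-fold, adjusted p = 0.000114) was the smallest of the 7 that were higher in liver, and it was 1.65 without that array.

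Lss, which encodes the lanosterol synthase that closes the sterol rings, had 10.34, 10.68 and 11.03 in 0.1 Se liver and 10.68, 10.46 and 10.33 in 0 Se liver, against 8.24, 8.44 and 8.50 in 0.1 Se lung and 8.51, 8.14 and 8.51 in 0 Se lung. Its 2 probe sets disagreed on the size, since the brighter one over all arrays, which ends in _s_at and can bind related transcripts, gave 2.20 ± 0.12 (4.59-fold) and the other 0.93 ± 0.18 (1.91-fold, adjusted p = 0.000165). Cyp51, the lanosterol demethylase, had 11.43, 11.99 and 11.62 in 0.1 Se liver and 11.85, 12.09 and 11.67 in 0 Se liver, against 9.37, 9.27 and 9.05 in 0.1 Se lung and 9.67, 9.59 and 9.38 in 0 Se lung. The liver arrays of Cyp51 exceeded its lung arrays by 2.39 ± 0.11 (5.23-fold, adjusted p = 7.9e-12).

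The regulators went opposite ways. Insig1, itself a target of SREBP-2, had 13.00, 13.75 and 13.49 in 0.1 Se liver and 13.80, 13.37 and 13.35 in 0 Se liver, against 10.78, 10.94 and 10.84 in 0.1 Se lung and 11.02, 10.77 and 10.80 in 0 Se lung. It was 6.08-fold higher in liver (2.60 ± 0.11, adjusted p = 7.49e-12). Srebf2 had 8.12, 8.08 and 7.81 in 0.1 Se liver and 8.30, 8.18 and 7.41 in 0 Se liver, against 8.81, 8.69 and 9.12 in 0.1 Se lung and 9.06, 8.88 and 9.00 in 0 Se lung. It was 1.92-fold lower in liver (-0.94 ± 0.15, adjusted p = 2.38e-05), with no overlap between the tissues, and its second probe set was blank on the 6 liver arrays and listed on the 6 lung arrays at 7.05 to 8.12. A blank marks a value the authors left out, such as an absent call. In each gene the order was therefore both liver groups over both lung groups, reversed for Srebf2, and no difference between the diets within a tissue passed limma's adjusted test.

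**Figure D1:**
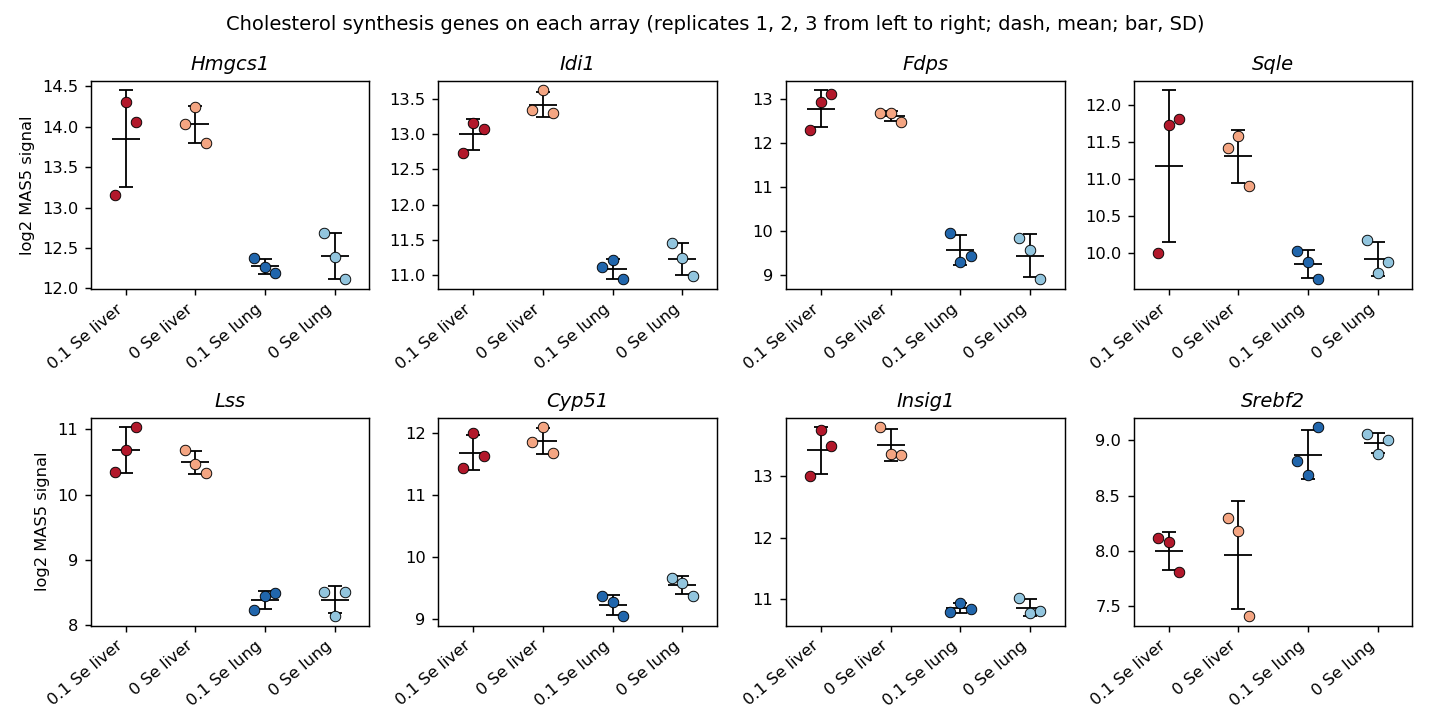
Log2 MAS5 signal (vertical axis) of the 8 genes on each of the 12 arrays, by group (0.1 Se and 0 Se in liver, then in lung; dash, mean; bar, SD; n = 3). The liver arrays lie above the lung arrays for 7 genes except for Sqle on 0.1 Se liver replicate 1 (10.00), and below them for Srebf2.

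The other genes of the route were taken from lists by name. Of 17 listed synthesis enzymes 13 were tested, of which 11 were higher in liver and 2 lower, with a median of 2.53. The sterol reductase gene Tm7sf2 differed by 5.17 ± 0.08 (36.1-fold), the desaturase gene Sc5d by 3.69 ± 0.08, the methyl oxidase gene Msmo1 by 3.14 ± 0.14 and the late reductase gene Dhcr7 by 2.95 ± 0.11. Ebp, Hsd17b7, Erg28, Nsdhl, Fdft1, Pmvk and Mvd lay between 1.26 (Mvd) and 2.77 (Ebp). Ggps1, which lengthens the isoprenoid chain for protein prenylation, was lower at -2.25 ± 0.10, and so was Lbr, a sterol reductase of the nuclear envelope (-1.61 ± 0.12).

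Of 7 regulators tested, 4 were higher in liver and 3 lower (median 1.66). Scap (1.92 ± 0.06), Insig2 (2.23 ± 0.09), Srebf1 (2.14 ± 0.17) and the oxysterol receptor gene Nr1h3 (1.66 ± 0.09) were higher. The protease genes Mbtps1 (-0.27 ± 0.06) and Mbtps2 (-0.53 ± 0.13), which release the SREBP fragment, were lower, as was Mylip (-0.88 ± 0.12), a ligase for lipoprotein receptors. The value of Mbtps1 lay near the median of all probe sets (-0.18), and other scalings of these list genes were not tested.

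Of 9 uptake and trafficking genes tested, 5 were higher in liver and 4 lower (median 0.94). The sterol carrier gene Stard4 (2.10 ± 0.10), Npc1 (1.72 ± 0.10), which moves cholesterol out of lysosomes, the HDL receptor gene Scarb1 (1.33 ± 0.08), the lysosomal lipase gene Lipa (1.31 ± 0.06) and Lrp1 (0.94 ± 0.09) were higher. Npc2 (-2.42 ± 0.09), Vldlr (-1.71 ± 0.08), Lrpap1 (-0.87 ± 0.06) and Stard3 (-0.78 ± 0.09) were lower. Of 10 export and bile acid genes 5 were tested, with Cyp7b1 (6.26 ± 0.13), Cyp27a1 (3.92 ± 0.07) and Abca1 (1.19 ± 0.10) higher and Abcg1 (-2.06 ± 0.14) and Cyp39a1 (-0.60 ± 0.20) lower, while Cyp7a1, Cyp8b1, Abcg5, Abcg8 and Nr0b2 were blank in lung.

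**Figure D2:**
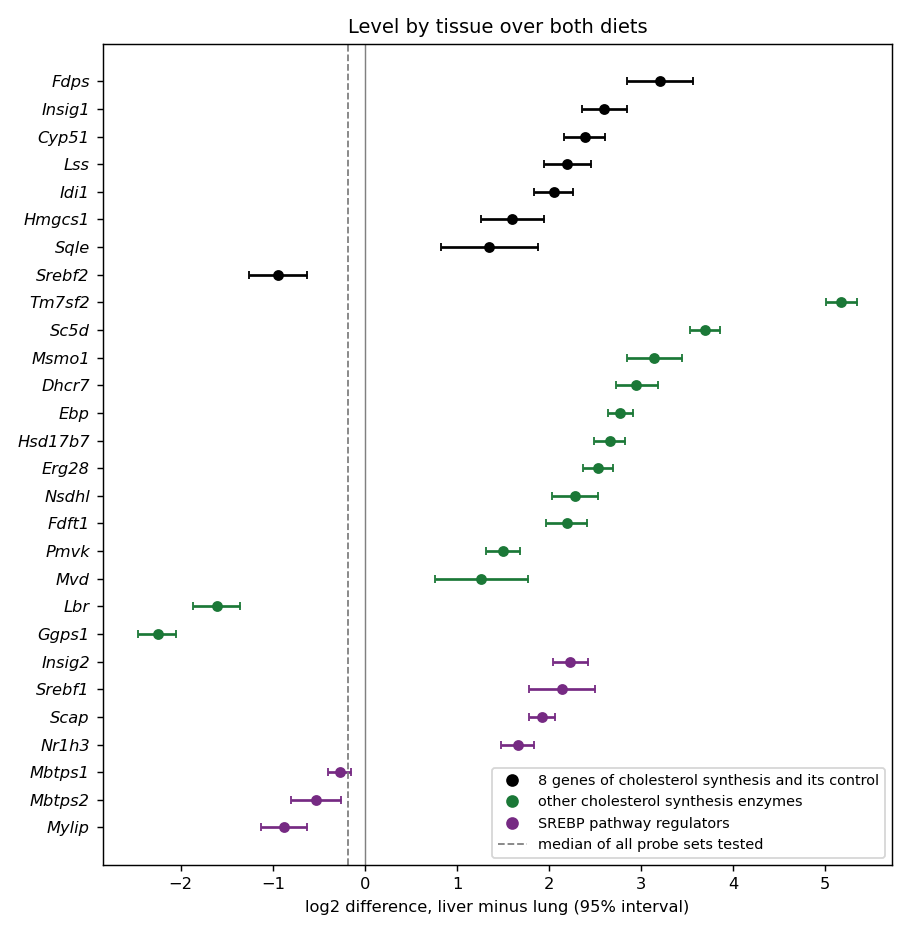
Log2 difference of liver minus lung over both diets (horizontal axis, point; bar, 95% interval from limma, 12 arrays) for the 8 genes, other cholesterol synthesis enzymes and regulators of the SREBP pathway. Most genes lie right of 0, up to 5.17 for Tm7sf2, while Srebf2, Lbr, Ggps1, Mbtps1, Mbtps2 and Mylip lie left of 0 and of the dashed median of all probe sets tested (-0.18).

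Marker genes matched the tissue labels. Each of 7 hepatocyte markers was listed on every liver array (summed linear signal 333141 to 353078 in 0.1 Se liver and 286755 to 355901 in 0 Se liver), and 1 to 3 of them were listed on a lung array (167 to 526 in 0.1 Se lung and 215 to 985 in 0 Se lung). Of 8 alveolar and airway markers, 7 were listed on each lung array, and 1 or 2 on a liver array. The arrays listed 17235 to 17923 probe sets in liver and 22197 to 22718 in lung.

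In liver, none of the 8 genes passed the test of the diet. Limma called 0 of the 8, against 0.0121% of the 16575 probe sets tested (2 in all). The median difference of 0.1 Se minus 0 Se was -0.11 over the 8 genes, with 5 below 0. It was 0.00 over all probe sets, 49% of which lay above 0. At an unadjusted p under 0.05 there was 1 of the 14 tested probe sets of these genes, against 6.65% of all, and the methods' t-test gave 0 of 14.

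Idi1 was the gene nearest to a change. Its 0.1 Se liver arrays (12.74, 13.16 and 13.08) all lay below its 0 Se liver arrays (13.34, 13.62 and 13.30). The difference was -0.42 ± 0.13 (95% interval -0.71 to -0.14), or 1.34-fold, with an adjusted p of 0.594. An exact permutation test of these 3 against 3 arrays gave p = 0.1, the smallest possible. Diets did not overlap for 12.2% of 14759 probe sets in liver, and Idi1 was 1 of 8 genes to do so here. On its second probe set the difference was -0.31 ± 0.15 and the diets overlapped.

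For the other genes the diets overlapped on the main probe set. The differences were -0.19 ± 0.15 for Cyp51, -0.18 ± 0.24 for Hmgcs1, -0.13 ± 0.40 for Sqle, -0.09 ± 0.18 for Insig1, 0.04 ± 0.25 for Srebf2, 0.16 ± 0.18 for Fdps and 0.19 ± 0.17 for Lss (adjusted p from 0.864 to 0.984). The 95% interval ran from -1.01 to 0.76 for Sqle, from -0.72 to 0.36 for Hmgcs1, from -0.53 to 0.14 for Cyp51, from -0.49 to 0.31 for Insig1 and from -0.50 to 0.59 for Srebf2, and each of these held the value of Idi1 (-0.42). Those of Fdps (-0.23 to 0.55) and Lss (-0.19 to 0.57) did not, though both overlapped the interval of Idi1 itself (-0.71 to -0.14). Differences between the genes were not tested.

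Several of these values turned on 1 array. Without 0.1 Se liver replicate 1 the difference was 0.47 ± 0.17 for Sqle, 0.40 ± 0.10 for Fdps, 0.37 ± 0.15 for Lss, 0.16 ± 0.14 for Hmgcs1 and 0.12 ± 0.15 for Insig1, all above 0, while Idi1 stood at -0.30 ± 0.11, Cyp51 at -0.07 ± 0.15 and Srebf2 at -0.02 ± 0.28. None passed (adjusted p from 0.217 to 0.99).

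In lung too, none of the 8 genes passed the test of the diet. Limma called 0 of the 8, against 0.0924% of 21655 probe sets (20 in all). The median over the 8 genes was -0.09, against -0.01 over all probe sets, 47.9% of which lay above 0. Of the 8 genes 7 lay below 0, Lss (0.00) and Insig1 (-0.01) by almost nothing. At an unadjusted p under 0.05 there were 3 of the 15 tested probe sets of these genes, against 7.67% of all, and the methods' t-test gave 0 of 15.

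Cyp51 had the largest difference in lung among the main probe sets. Its signal was 9.37, 9.27 and 9.05 in 0.1 Se lung and 9.67, 9.59 and 9.38 in 0 Se lung, so the diets did not overlap, as for 12.9% of 20062 probe sets. The difference was -0.32 ± 0.13 (95% interval -0.61 to -0.03, adjusted p = 0.594, exact permutation p = 0.1), and -0.15 ± 0.21 on its other probe set. The remaining values were -0.14 ± 0.12 for Idi1, -0.13 ± 0.13 for Hmgcs1, -0.11 ± 0.14 for Srebf2, -0.08 ± 0.14 for Sqle, -0.01 ± 0.10 for Insig1, 0.00 ± 0.16 for Lss and 0.12 ± 0.23 for Fdps. The intervals were narrower than in liver for each gene but Fdps (-0.40 to 0.64), such as -0.39 to 0.23 for Sqle and -0.22 to 0.20 for Insig1.

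In lung the probe sets of a gene could differ in sign. Hmgcs1 gave -0.31 ± 0.11 (adjusted p = 0.487) on a second probe set, with values of at most 12.09 in 0.1 Se lung and of 12.51, 12.38 and 12.12 in 0 Se lung, and 0.09 ± 0.13 and -0.10 ± 0.15 on the remaining pair. Its main probe set ends in _x_at and can bind related transcripts. Srebf2 gave 0.51 ± 0.21 (adjusted p = 0.594) on its dimmer probe set, with 8.12, 7.97 and 7.54 in 0.1 Se lung and 7.63, 7.41 and 7.05 in 0 Se lung, which overlapped, against -0.11 on the brighter one. Another Hmgcs1 probe set was listed on 2 lung arrays only, at 6.66 in 0.1 Se lung replicate 2 and 7.07 in 0 Se lung replicate 1, and was not tested.

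**Figure D3:**
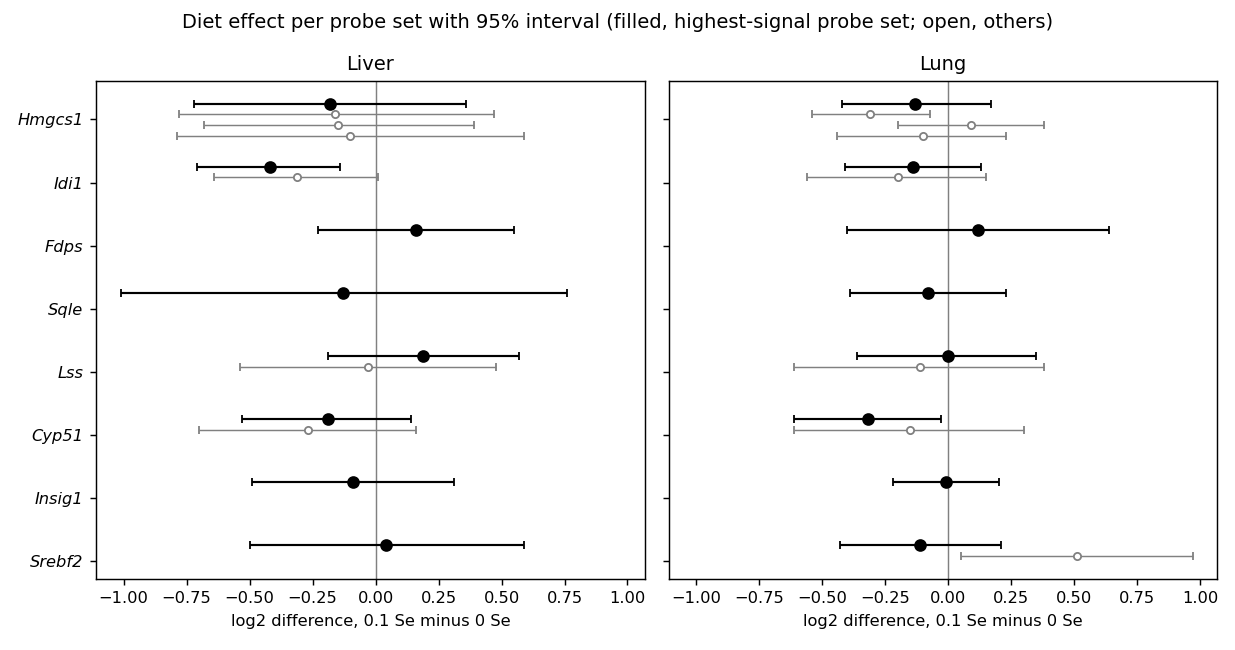
Log2 difference of 0.1 Se minus 0 Se (horizontal axis, point; bar, 95% interval from limma) per tested probe set of the 8 genes in liver and in lung (filled, probe set of the highest mean signal; open, others; 3 arrays per diet). No gene passed the adjusted test, and the interval of Sqle in liver, from -1.01 to 0.76, is the widest of the main probe sets.

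No difference between the tissues in the response to diet passed the test for these genes. The interaction (lung minus liver) was called for 0 of the 8 and for 0% of 15112 probe sets (931 at an unadjusted p under 0.05, of which 0 belonged to these genes). Its largest value was 0.28 ± 0.19 for Idi1 (95% interval -0.13 to 0.70, adjusted p = 0.87), and the value of Cyp51 was -0.13 ± 0.21.

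The other genes of the pathway did not pass either. In liver, limma called 0 of 14 other synthesis enzymes (median -0.03, with 5 above 0 and 9 below). Those with the smallest p were Ebp (0.17 ± 0.09), Erg28 (0.16 ± 0.09), Mvk (-0.32 ± 0.20) and Msmo1 (-0.27 ± 0.18). Of 7 regulators none passed, with Mylip at 0.28 ± 0.17, nor did any of 9 uptake and trafficking genes, with Vldlr, a receptor for triglyceride-rich lipoproteins, at -0.43 ± 0.14 (adjusted p = 0.635) and its arrays at 9.21, 9.35 and 9.51 in 0.1 Se liver against 9.75, 9.69 and 9.92 in 0 Se liver. Among 10 export and bile acid genes, none of which passed, Cyp7a1, the rate-limiting enzyme of bile acid synthesis, differed by 0.70 ± 0.29 (adjusted p = 0.732) and Cyp7b1, the oxysterol hydroxylase, by -0.35 ± 0.11 (adjusted p = 0.607). Without 0.1 Se liver replicate 1 the value of Cyp7a1 was 0.34 ± 0.21, and on its dimmer probe set it was 0.48 ± 0.38 with that array and -0.04 ± 0.23 without it. On the main probe sets of these lists, non-overlap of the diets in liver was no more than sparse, beside 12.2% of all probe sets. It held for 1 of 14 synthesis enzymes (Ebp, higher in 0.1 Se liver) and 0 of 7 regulators. Of 9 uptake and trafficking genes 1 was higher (Npc2) and 1 lower (Vldlr), and of 10 export and bile acid genes 1 was lower (Cyp7b1). Another probe set each of Npc2 and Cyp7b1 did likewise, while a further one of Npc2 overlapped. For Ggps1 and Scarb1, 1 probe set each was lower, while their main ones overlapped.

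In lung the same lists held 13, 7, 9 and 5 tested genes, and 0 of each passed. Hsd17b7, a sterol ketoreductase, gave -0.31 ± 0.14 (adjusted p = 0.636) on its main probe set, where the diets did not overlap, as for 12.9% of all probe sets. The probe sets of Hsd17b7 did not share a direction. On a dimmer one the diets overlapped, with 7.92 to 8.29 in 0.1 Se lung and 7.41 to 8.18 in 0 Se lung. Another was lower in 0.1 Se lung, at 7.45 to 7.73, against 7.95 and 7.89 in 0 Se lung and a blank on 0 Se lung replicate 3. Abcg1, a macrophage sterol exporter, gave 0.53 ± 0.18 (adjusted p = 0.476), with 11.57, 10.80 and 11.18 in 0.1 Se lung and 10.88, 10.68 and 10.41 in 0 Se lung, so the diets overlapped on that probe set. On its dimmer probe set they did not overlap, with 8.53, 7.80 and 8.12 in 0.1 Se lung and 6.95, 7.47 and 7.78 in 0 Se lung. Among main probe sets with a value on every lung array, non-overlap held for 1 of 12 synthesis enzymes (Hsd17b7). It held for 0 of 7 regulators, 0 of 9 uptake and trafficking genes and 0 of 5 export and bile acid genes. On other probe sets, 1 of Mvd was lower in 0.1 Se lung and 1 each of Abca1 and Lrp1 was higher, while their main ones overlapped. The interaction was 0.57 ± 0.17 for Vldlr (adjusted p = 0.682) and 0.68 ± 0.29 for Abcg1 (adjusted p = 0.76).

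Limma called 0 of the markers of other cells between the diets. In liver 7 of 7 macrophage markers had a difference above 0 (median 0.41), with a summed linear signal of 10886 to 13809 in 0.1 Se liver and 7675 to 10351 in 0 Se liver. In lung 5 of 5 tested macrophage markers were above 0 (median 0.26), with sums of 2817 to 4088 in 0.1 Se lung and 2640 to 3030 in 0 Se lung. The diets did not overlap for 4 of the 7 macrophage markers in liver, each higher in 0.1 Se liver, against 12.2% of all probe sets. In lung they did not overlap for 2 of the 5, each higher in 0.1 Se lung, against 12.9% of all probe sets. The other 3 in each tissue overlapped. Of 4 tested neutrophil markers 3 were above 0. In order of replicate, they summed to 17308, 4505 and 4462 in 0.1 Se lung and to 3348, 3377 and 1377 in 0 Se lung. The diets did not overlap for 3 of these 4, each higher in 0.1 Se lung. On 0.1 Se lung replicate 1, 3 of the 4 and 5 of 5 macrophage markers were highest, against 17.2% of all probe sets. That array was also lowest for 5 of 7 alveolar and airway markers and highest for 1, where it was lowest for 22.2% of all probe sets. Cardiac muscle markers were listed at 6 of 6 on each lung array, 6 of 6 with a difference below 0 and overlapping diets (median -0.60; 4281 to 17492 in 0.1 Se lung and 3825 to 28595 in 0 Se lung), and at 0 of 6 in liver. The alveolar and airway markers summed to 134656 to 240314 in 0.1 Se lung and 178627 to 242298 in 0 Se lung. Of 4 adipocyte markers with a probe set, 2 had a value on any array, and 0 were listed in liver. In lung they summed to 0 to 296 in 0.1 Se lung and to 124 to 1388 in 0 Se lung, the highest on 0 Se lung replicate 2, and Adipoq, the only one tested, differed by -0.41 ± 0.75. The part of these markers in the values of the synthesis genes was not tested.

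Within the tissues, several of the genes varied together from array to array. In liver, 0.1 Se liver replicate 1 held the lowest of the 6 liver values for 12 of the 14 probe sets of these genes (85.7%), where it held the lowest value of 19.2% of all probe sets. Sqle lay there at 10.00, against 11.74 and 11.81 on the other 0.1 Se liver arrays and 10.91 to 11.59 in 0 Se liver. Hmgcs1 at 13.16, Insig1 at 13.00, Idi1 at 12.74, Fdps at 12.30 and Cyp51 at 11.43 were also lowest there, while Srebf2 (8.12) was not. Lss lay at 10.34, next to the lowest value of 10.33, on its main probe set and was lowest there on its other one, at 9.27. The median deviation of the 8 genes from their liver means was -0.43 on that array and -0.18 to 0.25 on the other 5.

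Other sterol lists differed in how they stood on that array, which held the lowest value of 19.2% and the highest of 17.3% of all probe sets. Of 14 other synthesis enzymes 10 were lowest there, with a median deviation of -0.17. Fdft1, the squalene synthase gene, had 12.39 there, against 13.01 and 12.93 on the other 0.1 Se liver arrays and 12.63 to 12.96 in 0 Se liver. Cyp7a1 went the other way with 12.51, against 11.11 and 11.71 on the other 0.1 Se liver arrays and 10.69 to 11.33 in 0 Se liver, and of 10 export and bile acid genes 6 were highest and 2 lowest there. Of 7 regulators 1 was lowest and 2 highest (median deviation 0.01), and of 9 uptake and trafficking genes 2 were lowest and 2 highest (0.00). Of 5 fasting response genes 3 were highest there (median deviation 0.33), the angiopoietin-like gene Angptl4 among them at 12.75, against 11.78 and 11.92 on the other 0.1 Se liver arrays and 11.20 to 12.11 in 0 Se liver. Hepatocyte markers deviated by 0.02 on that array, and macrophage markers by 0.17. The fasting response genes summed to 13391 to 22197 in 0.1 Se liver, the highest on that array, and to 12714 to 17014 in 0 Se liver, and their part in the low values of the synthesis genes was not tested.

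In lung, 0 Se lung replicate 1 was highest for 11 of the 15 probe sets of these genes (73.3%), where it was highest for 17.5% of all probe sets. The 8 genes had a median deviation of 0.28 on that array and of -0.11 to 0.01 on the other 5. Of 5 fasting response genes 4 were lowest there, against 13.7% of all probe sets, with a median deviation of -0.19, and cardiac muscle markers deviated by -1.71 there. On 0 Se lung replicate 3, 5 of the 5 fasting response genes were highest, against 19.3% of all probe sets. Their median deviation was 0.27 on that array, and that of the 8 genes was -0.03. That array was lowest for 6 of the 15 probe sets of these genes (2 of the 8 main ones), against 19.9% of all probe sets. It was also lowest for 7 of 12 other synthesis enzymes and highest for 1, with a median deviation of -0.14. The part of the fasting response genes or of the cardiac muscle markers in these values was not tested. Without 0 Se lung replicate 1 the lung difference was 0.02 ± 0.11 for Hmgcs1, -0.03 ± 0.12 for Idi1, 0.05 ± 0.14 for Sqle and -0.26 ± 0.15 for Cyp51. It was 0.07 ± 0.10 for Insig1, 0.06 ± 0.18 for Lss, -0.07 ± 0.17 for Srebf2 and 0.32 ± 0.23 for Fdps, with none of the 8 past the test.

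**Figure D4:**
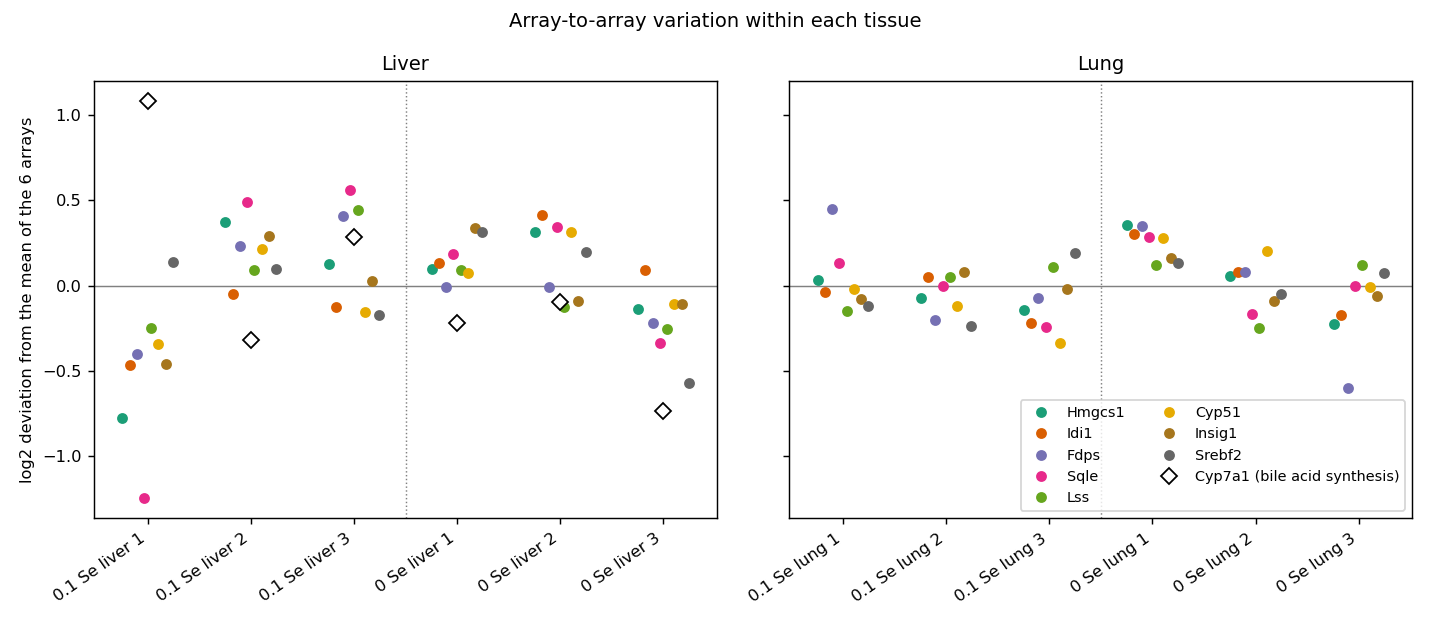
Log2 deviation of each gene from its mean over the 6 arrays of the tissue (vertical axis) on each array (horizontal axis, 0.1 Se left and 0 Se right of the dotted line). Sqle and Hmgcs1 lie lowest on 0.1 Se liver replicate 1, where Cyp7a1 lies highest, and the 8 genes lie above 0 on 0 Se lung replicate 1.

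The SD of the 8 genes had a median of 0.36 in 0.1 Se liver, up to 1.02 for Sqle, and 0.22 in 0 Se liver, against 0.19 and 0.14 for all probe sets in these groups. In lung it was 0.15 in 0.1 Se and 0.22 in 0 Se, against 0.15 and 0.14 for all probe sets.

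How closely each gene followed the others was described by Pearson's r over the 12 arrays after the tissue means had been subtracted. Against the mean of the other 7, r was 0.95 for Hmgcs1, 0.88 for Sqle, 0.76 for Insig1, 0.67 for Cyp51, 0.61 for Idi1, 0.58 for Fdps and 0.42 for Lss, and 0.13 for Srebf2, the lowest of the 8. Within a tissue, r for Lss was 0.59 in liver and -0.10 in lung, and for Srebf2 it was 0.15 and 0.02. For the remaining genes it ran from 0.56 to 0.95 in liver and from 0.45 to 0.96 in lung. These points share arrays and diets and carry no test. The genes outside this group with the closest pattern to the mean of the 8, out of 7633 ranked, were Etl4 (r = 0.94, rho = 0.87), Trim27 (0.93, rho = 0.85), Cdk2ap1 (0.92, rho = 0.90), Parp4 (0.91, rho = 0.92) and Stk38l (0.91, rho = 0.80). Without 0.1 Se liver replicate 1 and 0 Se lung replicate 1, the arrays farthest from the median, their r was 0.78 to 0.89. The median r over all probe sets was 0.05. Of the listed pathway genes the closest were Fdft1 (0.90, and 0.76 without these arrays), Nsdhl (0.87), Mvd (0.85), Msmo1 (0.83) and Srebf1 (0.82).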

How the data were processed

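RNA of each tissue was biotin-labelled (3′ IVT) and hybridized to Affymetrix mouse genome arrays. The authors scaled the MAS5 signal of every array separately, omitted absent calls and deposited log2 values. Their notes to GEO list R 2.15.2 with affy 1.36.0. Of 29467 probe sets, 58 controls were dropped, and 112136 blank cells stayed missing. Listed values ran from 6.64, a signal of 100, up to 16.4. Platform annotation, updated by Entrez number against RefSeq, gave 24504 probe sets a single gene. The probe set of the highest mean signal stood for its gene.

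Diets were compared within a tissue, and the tissues and the interaction over 12 arrays, with limma 3.58.1 in R 4.3.3 (lmFit, then eBayes with trend; 2 or more values per group; two-sided p, Benjamini-Hochberg over all probe sets tested, threshold 0.05; 95% intervals). The fit was tested on simulated data with independent noise for each probe set, so deviations shared by many genes on an array were not covered. With 3 arrays per group an exact two-sided p cannot fall below 0.1, and the number of arrays limits the precision. Named genes were the 8 genes, up to 4 per list with the smallest p plus any past the threshold, and the 5 genes of the closest pattern; Angptl4, Fdft1 and Cyp7a1 on single arrays were chosen after their values were seen. The genes and lists were chosen with earlier results of these data known. Alternatives changed the filter, the scaling, the eBayes options, the weights, a block on replicate number, the test, the probe set and the arrays kept. Plots were drawn with matplotlib 3.10.9.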

Additional observations from a re-analysis of the deposited data

How the results depend on the processing

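The tissue difference kept its direction and passed the threshold for each of the 8 genes under all 198 alternative values, including other probe sets, each diet alone and each array left out. Its count of 12326 probe sets became 19425 with no filter and blanks at the lowest value, and ran from 11550 to 12065 with 1 array left out. Quantile normalization moved the median of all probe sets from -0.18 to -0.45 and median centring to -0.38, with 31.3% and 33.4% of calls higher in liver in place of 41.6%. Relative to these medians the 8 genes kept their direction, and under quantile normalization Hmgcs1 stood at 0.82 and Sqle at 1.02.

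No diet or interaction value of the 8 genes passed under any alternative (smallest adjusted p 0.217 in liver, 0.289 in lung and 0.513 for the interaction). The count of 2 calls in liver became 1 with a value on every array, 5 with no filter, 0 with no trend, 0 with the replicate block, 14 with the 12 arrays in one fit and 0 by the methods' t-test after adjustment (985 at its unadjusted 0.05), and 0 to 9 with 1 array left out (0.1 Se liver replicate 1 gave the 9, and both replicates 1 and 3 of 0 Se liver gave 0). The count of 20 in lung became 5 with no filter, 8 with the mean signal filter, 10 with quantile normalization, 0 with no trend, 13 with a robust trend, 40 with array weights, 56 with the replicate block and 0 by the methods' t-test (1412 at its unadjusted 0.05), and 0 to 75 with 1 array left out (0.1 Se lung replicate 1 gave the 75, and replicate 2 of either diet gave 0). The interaction count of 0 became 58 with no filter and 0 to 3 with 1 array left out. The cause of these shifts was not tested. Same-numbered arrays share only a number per the labels. Their deviations correlated from -0.19 to 0.15 between the diets and from -0.04 to 0.02 between the 0.1 Se tissues. Between the 0 Se tissues they correlated by 0.11, 0.06 and 0.11, each highest for its own number (3 of 3), a hint from the data and not from the design, while this held for 0, 1 and 1 of 3 in the liver diets, lung diets and 0.1 Se tissues. The block left the tissue count at 12303 and the interaction count at 0.

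The signs that turned belonged to values that did not pass. With array weights, Srebf2 in liver was -0.02, and in lung Fdps was -0.01, Insig1 0.01 and Lss 0.10, while the interaction was -0.03 for Hmgcs1, -0.03 for Sqle and 0.01 for Srebf2. Lss in lung was 0.00 after quantile normalization and 0.01 after median centring. In an alternative chosen after seeing the data, Cyp7a1 in liver was -0.04 on its dimmer probe set without 0.1 Se liver replicate 1. By another probe set, Lss in liver was -0.03, Hmgcs1 in lung 0.09, Srebf2 in lung 0.51, the interaction of Cyp51 0.11 and that of Hmgcs1 -0.15 or 0.00. With 1 array left out, values in liver ran from -0.41 to 0.16 for Hmgcs1, -0.44 to 0.47 for Sqle, -0.01 to 0.40 for Fdps, -0.26 to 0.12 for Insig1 and -0.24 to 0.21 for Srebf2. In lung they ran from -0.27 to 0.02 for Hmgcs1, -0.18 to 0.05 for Sqle, -0.15 to 0.32 for Fdps, -0.06 to 0.07 for Insig1 and -0.12 to 0.08 for Lss. The interaction ran from -0.29 to 0.29 for Hmgcs1, -0.54 to 0.36 for Sqle, -0.31 to 0.16 for Fdps, -0.12 to 0.25 for Insig1, -0.25 to 0.03 for Cyp51 and -0.32 to 0.13 for Srebf2.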

Other observations

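Some genes of other lipid pathways, chosen after their values were seen or from the fasting response list, also ran with or against the mean of the 8 genes over the 12 tissue-centred arrays, given here as values with no test. Fasn, the fatty acid synthase gene, had r = 0.90 (0.88 without the 2 arrays farthest from the median), rank 6 of 7633 genes. The fasting response genes Cpt1a, the carnitine transferase of fatty acid oxidation (r = -0.81), Angptl4, an inhibitor of lipoprotein lipase (-0.79), and Acot1, an acyl-CoA thioesterase (-0.75), ran opposite, as did Cyp27a1, a sterol hydroxylase of bile acid synthesis (-0.73). Without the 2 farthest arrays these were -0.61 for Cpt1a, -0.62 for Angptl4, -0.75 for Acot1 and -0.54 for Cyp27a1. Acot1 and Cyp27a1 ran opposite in liver (-0.93 and -0.87) and not in lung (0.38 and 0.33), and the difference between tissues was not tested. The other fasting response genes, Txnip (-0.32) and Pdk4 (-0.16), had values nearer 0 over the 12 arrays. These were -0.05 for Txnip and 0.36 for Pdk4 without the 2 farthest arrays. In lung alone both ran opposite (-0.61 for Txnip and -0.78 for Pdk4), against -0.27 and 0.24 in liver.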
